A study of Mus musculus with 10 samples.

Results

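Transcript levels in mouse embryonic stem cells labelled as Mettl3 knockout were set against those of wild-type cells in the input libraries of an m6A mapping experiment, that is, in RNA taken before antibody capture. The libraries were the 2 inputs labelled mettl3 KO (KO) and the 2 inputs labelled mettl3 WT (WT), 4 of the 10 libraries of the series. Every group used here was J-1, an established male mouse embryonic stem cell line, grown without feeder cells, and the RNA was total RNA made into strand-specific dUTP libraries. The shared protocol text also mentions culture without LIF, the cytokine that sustains naive pluripotency, but does not say that any of these 4 libraries came from such cells. The sources used here state neither how Mettl3 was disrupted, nor how many clones were used, nor whether replicates were separate cultures, and the p-values therefore reflect nothing but the spread among these 4 libraries, possibly a technical one. A gene's level was its mean input coverage over all of its exon windows, and 11211 of the 30419 genes in the files, those with a coverage of at least 1 in at least 2 of the 4 libraries, were tested.

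N6-methyladenosine (m6A) is the most common internal modification of messenger RNA. It is written by a nuclear complex in which Mettl3 carries the catalytic site and Mettl14 holds the RNA, it is removed by the demethylases Fto and Alkbh5, and it is bound by readers of the YTH family. Methylated transcripts tend to be degraded sooner, and in embryonic stem cells m6A is known for its part in the exit from the naive pluripotent state.

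The libraries were alike in total coverage and differed in depth. Relative to the first input library of the series, which carries no Mettl3 genotype label and was not compared, the WT libraries had a depth of 0.438 and 0.457 and the KO libraries 0.516 and 0.284, and windows without coverage made up 36.7, 36.7, 35.7 and 41.2% of all windows. Across the genes tested, log2(coverage + 1) correlated at 0.997 between the WT libraries, 0.996 between the KO libraries and 0.985 to 0.987 between genotypes. Mettl3 itself stood at 4.79 and 4.67 in the WT libraries, against 3.14 and 3.38 in KO (log2 change −0.43, SE 0.0720, limma adjusted p = 0.00259). It was lower in both KO libraries, whose mean was 0.689 of the WT mean, and each of its 11 exons, as the files number them, was covered in all 4 libraries. The altered part of the gene is not stated and Mettl3 lies on chromosome 14, which fell as a whole (below), so this level does not check the labels.

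Of the 11211 genes, 1455 rose and 1522 fell in KO (limma, Benjamini-Hochberg adjusted p below 0.05, n = 2 per group). This is 26.6% called, with 13.0% up and 13.6% down, and 65.7% of genes had no overlap between the WT and KO libraries (31.7% with both KO libraries higher, 34.0% with both lower). Most differences were small. The median change was 0.33 among genes that rose and −0.33 among those that fell, on the scale of differences in log2(coverage + 1) used throughout, and 40 rose and 18 fell by 1 or more. This scale understates the change of genes with low coverage. A gene under 1 in both libraries of a genotype was tested only where both libraries of the other genotype reached 1. Such genes entered only with a difference in that direction, so their p-values and their part in the list counts are not free of this selection. Thbs1, Anxa1, Anxa3, Sgce, Plagl1 and Nes, among others, entered through KO in this way, and Stra8, Sox1, Mov10l1 and Bmp4 through WT. The counts were 1743 and 1930 in all without WT replicate 1 and without WT replicate 2, so a single WT library moved them by more than 1.5 times.

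The genes that stood farthest from WT came from several gene families. Of the 15 largest rises, Tagln, Thbs1, Krt8 and Anxa3 encode cytoskeletal, matrix and membrane-binding proteins, Peg10, Mcts2, Nnat and D7Ertd715e (an older name of Snhg14) are imprinted, Dppa3 is a gene of the early embryo and germ line, Car4 is a carbonic anhydrase, Trh encodes the precursor of thyrotropin-releasing hormone, and Hmga2 is a chromatin protein of the embryo. Gm10664, an older name of Apela, which encodes a peptide hormone of embryonic stem cells, completed them with guttman:linc1393.3 and guttman:linc1385.3. These noncoding names had equal coverage with Gm10664 in 8 windows and with D7Ertd715e in 10 windows, so they may not be separate genes. Of the 15 largest falls, 7 were Zscan4 copies or the name A7KBS4, which shares 22 windows with Zscan4f, and Grb10 and Cdkn1c are imprinted. The rest were Jam2, Stra8, Guca1a, Gm5662, Mir3078 and guttman:linc1246.3.

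Genes of nearly a whole chromosome were lower in KO. Genes were placed on chromosomes by symbol through the RefSeq table of GRCm38.p6. On chromosome 14, 243 of 381 genes fell (63.8%) and 8 rose (2.10%), and 336 were lower in KO whether or not they passed. Their median change was −0.30, and among its genes with a mean coverage of at least 5 in both groups the median ratio of KO to WT coverage was 0.806. The shift had a similar size in each of the 4 pairs of a KO with a WT library, from −0.31 to −0.27, while replicate 2 minus replicate 1 was 0.04 in WT and −0.00 in KO on this chromosome. It ran along the whole chromosome: in 8 blocks of 47 or 48 neighbouring genes the block medians lay between −0.36 and −0.22.

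Chromosome 4 followed with 205 of 693 genes that fell (29.6%), and its fall was uneven. Its 14 blocks of neighbouring genes went from 0.06 at its start, the block from Tmem68 to Ufl1, to −0.30 in the block from Pqlc2 to Gm13251, where 36 of 49 genes fell, and −0.16 in the last. On the X chromosome 111 of 363 genes rose (30.6%) with a median of 0.12, and the blocks lay between 0.06 and 0.19. The 17 other autosomes had medians from −0.06 to 0.05, with chromosome 17 the lowest. Chromosomes 14 and 4 held 16.0 and 13.5% of all genes that fell. DNA copy number was not measured in these files and its part in these shifts was not tested. Among the 10137 genes not placed on these chromosomes, which include the X chromosome and genes with no chromosome in the table, 24.6% were called in the fit of all genes, 14.0% up and 10.6% down, and a fit of these genes alone called 2389. The gene lists are given below also without their members on these chromosomes where that matters.

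**Figure D1:**
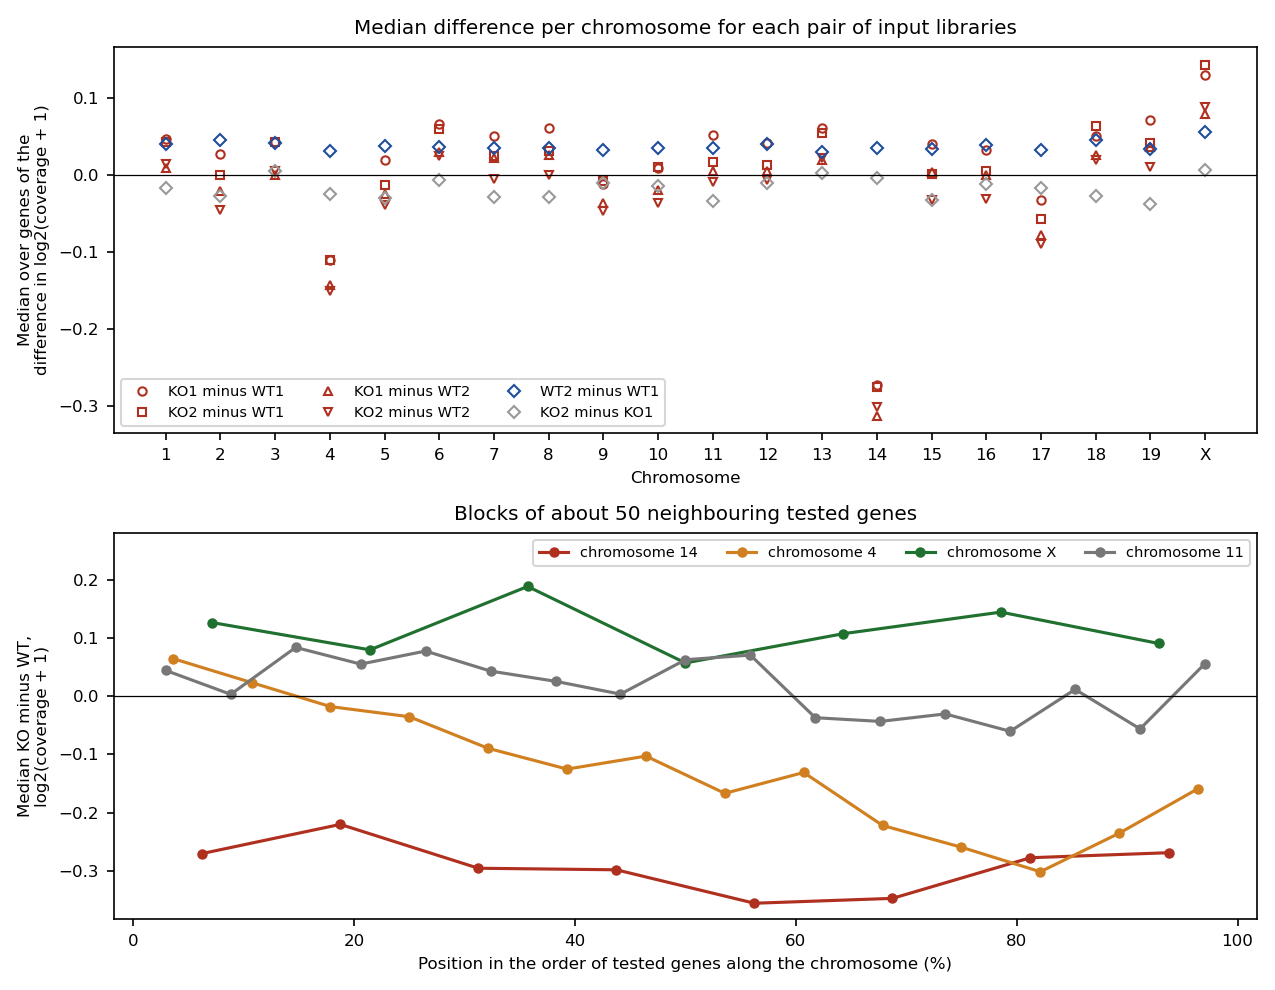
Median difference in log2(mean input coverage + 1) over the tested genes of each chromosome for every pair of libraries (upper panel; red symbols are KO minus WT pairs, blue is WT replicate 2 minus 1, grey is KO replicate 2 minus 1), and the median KO minus WT difference in blocks of about 50 neighbouring genes along 4 chromosomes (lower panel; x axis, position in gene order in percent). All 4 KO minus WT pairs on chromosome 14 lie between −0.31 and −0.27, and chromosome 4 declines to −0.30 and ends at −0.16.

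Target genes of SRF and YAP, among them genes of actin, contraction and matrix, rose in 13 of 22 tested cases and fell in none. Serum response factor (SRF) with its actin-sensing cofactors, and the Hippo pathway's coactivator YAP with TEAD factors, switch on an overlapping set of cytoskeletal and matrix genes when cells spread or carry tension. Of the other 9 members none passed, and 2 of them were lower in KO. The list had a median change of 0.39 against −0.00 over all genes tested, and no listed member on chromosomes 14 or 4 was among those that rose. The count was 11 to 12 with any 1 library left out.

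Tagln, which encodes an actin-binding protein of smooth muscle, stood at 2.49 and 3.17 in the WT libraries, against 11.6 and 11.2 in KO. The KO libraries were 4.03 times as high in mean coverage (log2 change 1.70, SE 0.0891, limma adjusted p = 4.75e-06), and neither came near a WT library. Tpm1, a tropomyosin that lies along actin filaments, stood at 10.5 and 10.8 in the WT libraries, against 24.8 and 24.03 in KO (log2 change 1.13, SE 0.0625, limma adjusted p = 6.63e-06). Acta2, smooth muscle actin, was low in both groups and stood at 1.17 and 1.03 in the WT libraries, against 3.23 and 3.78 in KO, a change of 1.099 (limma adjusted p = 4.20e-05). Cyr61, a secreted matrix-associated protein and a standard readout of YAP, had 3.35 and 3.49 in the WT libraries, against 9.31 and 8.59 in KO (log2 change 1.17, SE 0.0715, limma adjusted p = 1.04e-05). Thbs1, a thrombospondin of the matrix, was hardly covered in WT, with 0.577 and 0.650 in the WT libraries, against 3.12 and 3.12 in KO. In each of these genes the replicates of a genotype lay close together and the genotypes did not overlap. Cald1, an actin- and myosin-binding protein, rose by 0.83, the calponin Cnn2 by 0.67, and Amotl2, a junction protein that binds YAP, by 0.67.

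The promoters of these genes were searched for the sequences that SRF and TEAD factors bind. The window was the 250 bases before to 50 after the RefSeq gene start (GRCm38.p6), and 17 of the 22 tested members were in that table. The motifs searched on both strands were the CArG box, the SRF element, as a perfect match, and the TEAD core GGAATG. A CArG box was present in 5 of these 17 genes (29.4%) and in 1.62% of the 8330 tested genes in the table, and GGAATG was present in 9 of 17 (52.9%) and in 13.9%. Among the members that rose, 2 of 9 had a CArG box and 6 of 9 had GGAATG. The list was compiled from known targets of these factors, so the shares describe how it was chosen as well. A match is not a measured binding site. The stretches of 60 bases below lie upstream of the gene start, are printed 5′ to 3′ on the strand of the gene, and show the match in capitals (CATTCC is GGAATG read on the other strand). Cnn2 is shown for its CArG box, and the others for the TEAD core.
Cnn2, chr10:79988519-79988578, plus strand: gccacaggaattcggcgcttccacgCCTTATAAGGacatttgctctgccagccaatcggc
Cyr61, chr3:145650056-145650115, minus strand: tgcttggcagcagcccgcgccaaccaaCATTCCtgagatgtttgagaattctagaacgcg
Acta2, chr19:34255487-34255546, minus strand: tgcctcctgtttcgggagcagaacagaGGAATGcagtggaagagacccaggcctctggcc
Amotl2, chr9:102717712-102717771, plus strand: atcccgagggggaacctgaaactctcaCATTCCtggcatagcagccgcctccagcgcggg
Tpm1, chr9:67049237-67049296, minus strand: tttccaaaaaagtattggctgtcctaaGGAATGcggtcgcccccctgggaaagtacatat
The match began 56 bases before the gene start in Cnn2, 56 in Tpm1, 65 in Amotl2, 103 in Cyr61 and 146 in Acta2.

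The claudins, classical cadherins, connexins and keratins that passed were all higher in KO. Jam2, a junctional adhesion molecule of the naive list, fell (below). Of 13 tested claudins, classical cadherins and connexins 7 rose and none fell (median 0.26), 6 did not pass and 2 of those were lower in KO, with 6 to 8 that rose when 1 library was left out. Gja1, the main connexin of embryonic stem cells, had 23.9 and 24.7 in the WT libraries, against 45.3 and 44.6 in KO (log2 change 0.86, SE 0.0615, limma adjusted p = 3.01e-05). Cldn3 rose by 0.94, Cldn6 by 0.83, Cldn7 by 0.67 and Cldn4 by 0.48, and all 4 are claudins of tight junctions. The cadherins differed in size: Cdh3, P-cadherin, rose by 0.75, and Cdh1, E-cadherin, from 34.1 and 34.8 to 44.1 and 39.1, by 0.26 (limma adjusted p = 0.0254). Of 52 listed keratins 5 were tested and 15 were at 0 in all 4 libraries. Krt8, a keratin of simple epithelia, stood at 3.71 and 3.54 in the WT libraries, against 10.4 and 10.4 in KO (log2 change 1.30, SE 0.0670, limma adjusted p = 4.75e-06), its partner Krt18 at 3.52 and 3.21 in the WT libraries, against 8.98 and 9.92 in KO (log2 change 1.26, SE 0.0763, limma adjusted p = 1.04e-05), and Krt19 rose by 1.01. These 3 rose, and the other 2 tested keratins were lower in KO and did not pass.

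Membrane-binding and matrix genes split in direction. Among annexins and S100 proteins 7 of 16 rose and 7 fell, and outside chromosomes 14 and 4 the counts were 7 and 3 of 12. Anxa3 stood at 0.979 and 0.959 in the WT libraries, against 4.83 and 5.26 in KO (log2 change 1.62, SE 0.0774, limma adjusted p = 3.45e-06), and Anxa1 at 0.419 and 0.318 in the WT libraries, against 1.86 and 1.96 in KO (log2 change 1.09, SE 0.0858, limma adjusted p = 4.19e-05). Each reached the coverage limit in the KO libraries only, so each could be tested only because KO was higher. S100a6, a small calcium-binding protein, had 8.82 and 8.47 in the WT libraries, against 22.3 and 22.4 in KO, a change of 1.28. Anxa7 and Anxa8 fell by 0.41 and 0.49, and both lie on chromosome 14. With the median over windows 4 of 16 annexins and S100 proteins rose and 1 fell. Of 25 laminins, integrins and other matrix genes 8 rose and 6 fell, and with the median over windows 4 and 1. Itgb1, the shared beta subunit of many integrins, rose to 32.00 and 32.04 from 21.4 and 22.5 (log2 change 0.52, limma adjusted p = 3.93e-04). Nid1, which links laminin to collagen in basement membranes, stood at 13.96 and 14.3 in the WT libraries, against 7.72 and 7.49 in KO and fell (log2 change −0.82, limma adjusted p = 4.19e-05).

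Genes of naive pluripotency, the state of the early epiblast, fell more often than they rose. All 44 listed genes were tested. 19 fell (43.2%), 5 rose (11.4%), and the median change was −0.18. Outside chromosomes 14 and 4 the counts were 15 and 5 of 39. Without WT replicate 1, 18 fell and 1 rose, and without KO replicate 1, 20 fell and 3 rose. Of the list, 1 rose and 14 fell with the median over windows, and 1 and 10 without the coverage filter.

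The core factors differed among themselves. Pou5f1, the factor without which pluripotency is lost, stood at 246 and 259.8 in the WT libraries, against 252 and 248 in KO, with overlapping groups and a change of −0.02 (limma adjusted p = 0.875). Its partner Sox2 stood at 162 and 176 in the WT libraries, against 148 and 145 in KO, a change of −0.20 that did not pass (limma adjusted p = 0.0594). Nanog, a homeodomain factor of the same network, stood at 198 and 206 in the WT libraries, against 166 and 151 in KO and fell by 0.35 (log2 change −0.35, SE 0.0748, limma adjusted p = 0.00894). Of the ancillary factors some passed and some did not. Tbx3, a T-box factor downstream of LIF, stood at 23.9 and 24.8 in the WT libraries, against 13.99 and 12.9 in KO (log2 change −0.81, SE 0.0670, limma adjusted p = 4.66e-05). Klf4, on chromosome 4, stood at 68.1 and 70.9 in the WT libraries, against 50.6 and 44.3 in KO (log2 change −0.54, SE 0.0756, limma adjusted p = 9.68e-04), and Tfcp2l1, a target of LIF and STAT3, fell by 0.44. Klf2 and Esrrb did not pass, with changes of −0.15 and −0.20 (limma adjusted p = 0.132 and 0.0585).

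Other members of the naive list that fell encode proteins of several kinds. Jam2, a junctional adhesion molecule, had the largest fall of the list, with 14.95 and 15.02 in the WT libraries, against 5.91 and 6.07 in KO (log2 change −1.19, SE 0.0638, limma adjusted p = 5.02e-06). Fgf4, the growth factor with which these cells stimulate themselves, stood at 64.2 and 64.3 in the WT libraries, against 42.7 and 41.3 in KO (log2 change −0.60, SE 0.0620, limma adjusted p = 1.63e-04). Tet2, a dioxygenase that oxidises 5-methylcytosine, stood at 8.91 and 9.24 in the WT libraries, against 5.97 and 5.61 in KO, a change of −0.57, and its relative Tet1 fell by 0.37. Dppa5a, an RNA-binding protein of pluripotent cells and one of the most covered genes of the list, stood at 1525 and 1539 in the WT libraries, against 1121 and 1029 in KO (log2 change −0.51, limma adjusted p = 0.00396). Fbxo15 fell by 0.74 and the platelet adhesion molecule Pecam1 by 0.39. Tdh, threonine dehydrogenase, on chromosome 14, fell by 0.46, and lies on chromosome 14.

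Dppa3 moved against its list. This gene, also known as Stella, protects maternal methylation in the early embryo and varies between cells in culture. It stood at 12.8 and 15.6 in the WT libraries, against 42.6 and 48.2 in KO, 3.20 times as high in KO (log2 change 1.62, SE 0.0936, limma adjusted p = 8.13e-06), and it was the only one of the 44 genes to rise by more than 1. The other members that rose did so by 0.20 to 0.32, namely Utf1 (0.32), a chromatin protein of pluripotent cells, Cdh1 (0.26), Eras (0.22), a Ras protein of embryonic stem cells on the X chromosome, and Mycn (0.20). The LIF receptor Lifr and the methyltransferase cofactor Dnmt3l did not pass, with 0.14 and 0.03 (limma adjusted p = 0.171 and 0.734).

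Of 26 genes of the primed and formative states, through which epiblast cells pass before they differentiate, 20 were tested. 11 rose and 2 fell, with a median of 0.27, and without WT replicate 1, 7 rose and 3 fell. In this list 3 rose and 2 fell with the median over windows, and 3 and 2 without the coverage filter. The defining marker Fgf5 was under the coverage limit and Otx2, a homeodomain factor of the formative state, was near it and lies on chromosome 14, at 0.747 and 0.769 in the WT libraries, against 1.02 and 1.02 in KO (log2 change 0.20, limma adjusted p = 0.0984). Dnmt3b, a de novo DNA methyltransferase, stood at 13.8 and 15.6 in the WT libraries, against 20.1 and 19.4 in KO (log2 change 0.40, SE 0.0730, limma adjusted p = 0.00389). Pou3f1, a POU factor on chromosome 4, stood at 3.19 and 3.71 in the WT libraries, against 4.78 and 5.14 in KO, a change of 0.42. Zic2 stood at 2.82 and 2.75 in the WT libraries, against 5.47 and 5.11 in KO (log2 change 0.73, SE 0.0723, limma adjusted p = 1.31e-04) and so rose although it lies on chromosome 14. Car4, a carbonic anhydrase, had the largest rise of the list, with 1.94 and 1.83 in the WT libraries, against 6.30 and 6.54 in KO (log2 change 1.36, SE 0.0718, limma adjusted p = 4.75e-06). The genes that fell were Nodal and its coreceptor Tdgf1. Nodal stood at 24.5 and 26.00 in the WT libraries, against 17.4 and 17.1 in KO (log2 change −0.53, SE 0.0639, limma adjusted p = 4.44e-04). Tdgf1 stood at 292 and 313 in the WT libraries, against 218 and 214 in KO (log2 change −0.49, SE 0.0733, limma adjusted p = 0.00147). Of the same pathway, Lefty2 rose by 0.25 (limma adjusted p = 0.0330) and Lefty1 did not pass (−0.16, limma adjusted p = 0.125).

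**Figure D2:**
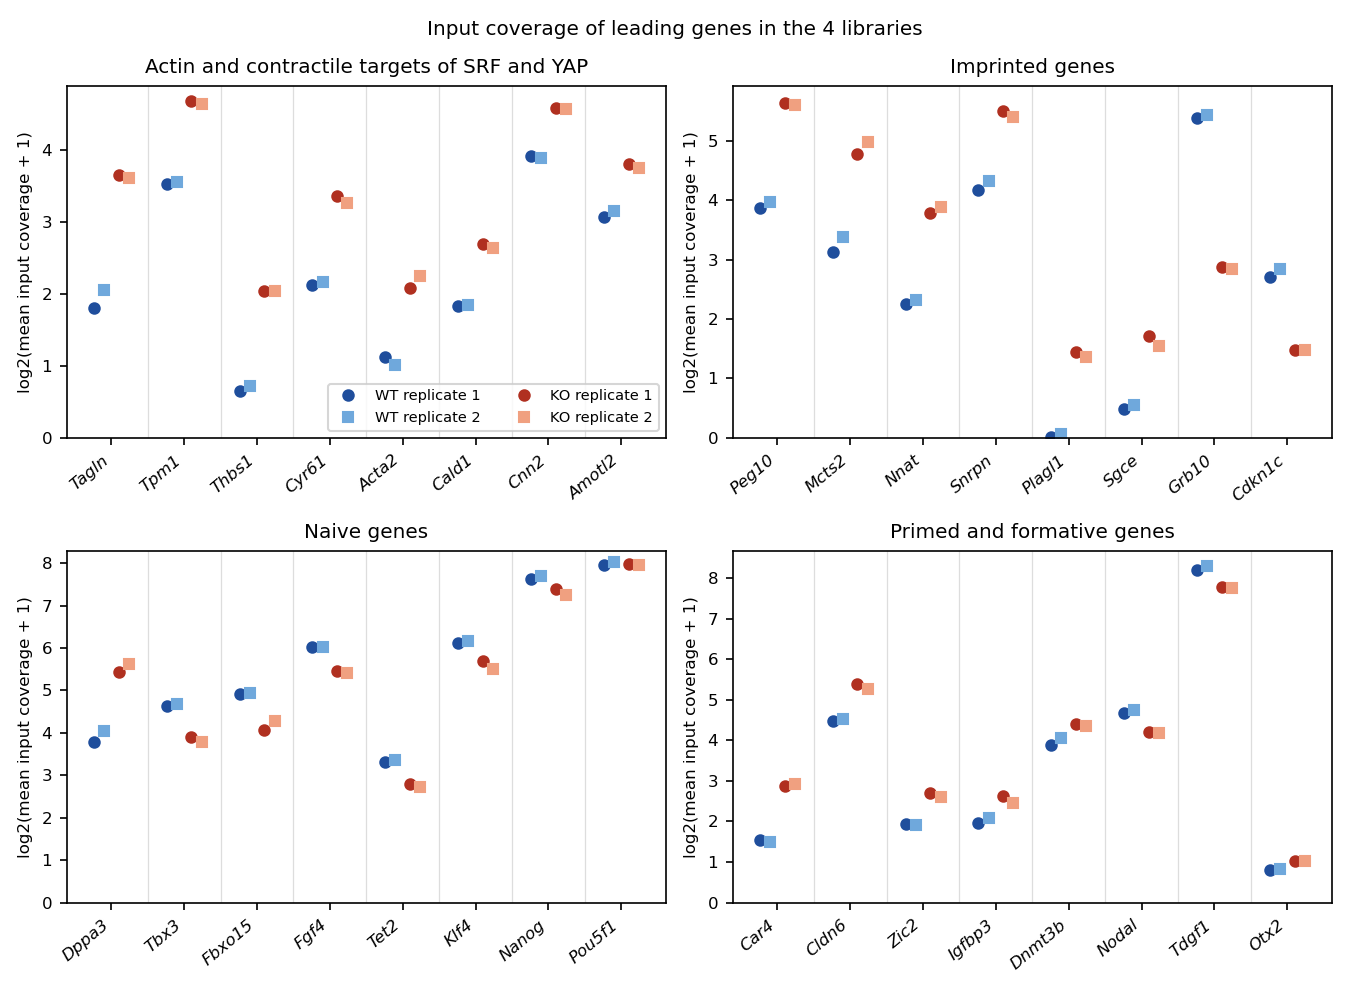
Mean input coverage per gene, as log2(coverage + 1), in WT replicates 1 and 2 (blue circle and square) and KO replicates 1 and 2 (red circle and square) for 8 genes each of 4 groups. The actin and imprinted genes shown were chosen among members that passed, so the lack of overlap between genotypes in them does not describe the full lists. In those lists 9 of 22 SRF and YAP targets, 3 of 18 paternal and 5 of 16 maternal genes did not pass. Across all genes tested 65.7% had no overlap. Dppa3 is higher in KO while most naive genes shown are lower, and Pou5f1 overlaps. In the full naive list 19 fell, 5 rose and 20 of 44 did not pass. In the full primed and formative list 11 rose, 2 fell and 7 of 20 did not pass.

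Targets of the signals that act on this transition moved in both directions. Of 14 LIF and STAT3 targets 3 rose and 4 fell, and outside chromosomes 14 and 4 the counts were 3 and 2 of 12. Of 9 Nodal and TGF-beta targets 3 rose and 4 fell, and outside these chromosomes 3 and 3 of 8. The shares over all genes tested were 13.0% up and 13.6% down. Of 14 FGF and ERK targets 5 rose and 3 fell, and outside these chromosomes 5 and 1 of 12. Dusp6, the phosphatase that switches off ERK and is induced by it, stood at 6.61 and 7.67 in the WT libraries, against 15.8 and 17.1 in KO (log2 change 1.103, SE 0.0791, limma adjusted p = 3.14e-05). Dusp4, of the same family, rose by 0.79, and Egr1, an immediate early zinc finger factor, stood at 7.63 and 8.32 in the WT libraries, against 13.04 and 12.8 in KO (log2 change 0.63, SE 0.0682, limma adjusted p = 2.25e-04). The Sprouty feedback inhibitors did not move together: Spry1 rose by 0.38, while Spry4 fell by 0.35 and Spry2, on chromosome 14, from 28.8 and 31.6 to 19.8 and 18.8, by 0.62. Without KO replicate 2, 5 rose and 1 fell, with the median over windows 4 and 1, and without the coverage filter 3 and 1. Of 13 immediate early genes, which respond to growth factors within minutes, 8 rose and none fell (median 0.28), among them Zfp36 (0.63), Dusp1 (0.36), Btg2 (0.32) and Klf6 (0.31). All 13 carried an m6A-enriched region in the first IP library, as did 6098 of the 11211 genes tested. The count of rises was 5 without WT replicate 1, 4 without WT replicate 2 and 7 without KO replicate 1, where 1 fell, and it was 3 with the median over windows or without the coverage filter. Zfp36 encodes a protein that binds AU-rich elements of unstable messages, and its own coverage went from 5.69 and 5.77 to 9.03 and 9.80.

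Imprinted genes, which are read from only the copy of 1 parent, included the largest fall of all genes, Grb10, and with Peg10 a rise as large as that of Tagln. Of 27 genes expressed from the paternal copy 18 were tested, 13 rose and 2 fell, with a median of 0.54. Of 16 tested genes expressed from the maternal copy 5 rose and 6 fell (median −0.12). With 1 library left out, 11 to 13 paternal genes rose and 0 to 1 fell, and without WT replicate 1, 3 maternal genes rose and 5 fell. With the median over windows 10 paternal genes rose and 0 fell, and 1 maternal gene rose and 4 fell. Without the coverage filter the counts were 8 and 0 for paternal and 1 and 2 for maternal genes.

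Some neighbouring imprinted genes moved together. Peg10, a gene derived from a retrotransposon and needed for the placenta, stood at 13.7 and 14.8 in the WT libraries, against 49.1 and 47.8 in KO (log2 change 1.70, SE 0.0653, limma adjusted p = 1.26e-06), and its neighbour Sgce, epsilon-sarcoglycan, at 0.401 and 0.463 in the WT libraries, against 2.27 and 1.92 in KO, 4.84 times as high (log2 change 1.11, SE 0.0898, limma adjusted p = 4.20e-05). In the Prader-Willi region, Snrpn and the overlapping Snurf, which shared 28 windows and cannot be separated, stood at 17.2 and 19.2 in the WT libraries, against 44.5 and 41.3 in KO for Snrpn (log2 change 1.20, SE 0.0735, limma adjusted p = 1.04e-05). Ndn, a melanoma antigen family protein of the same region, rose by 0.71, and D7Ertd715e by 1.59. In the Dlk1 and Gtl2 region the noncoding maternal genes Meg3, Rian and Mirg rose by 0.37, 0.50 and 0.49. The change of Meg3 had the other sign, −0.28, when the median over windows was used in place of the mean.

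The remaining imprinted genes moved in both directions. Mcts2, a retrogene within an intron of another gene, rose from 7.79 and 9.41 to 26.7 and 30.5, by 1.63. Nnat, neuronatin, a small membrane protein, rose from 3.76 and 4.01 to 12.7 and 13.7, by 1.54. Plagl1, a zinc finger factor, was almost without coverage in WT, at 0.00790 and 0.0520, and stood at 1.71 and 1.58 in KO (log2 change 1.36, SE 0.0875, limma adjusted p = 1.43e-05). Igf2, the fetal growth factor, rose from 1.12 and 1.09 to 2.58 and 1.85, by 0.60 (limma adjusted p = 0.00380). Grb10, an adaptor that restrains growth factor receptors, had the largest fall of all genes, with 41.04 and 42.5 in the WT libraries, against 6.38 and 6.19 in KO, 6.64 times lower in KO (log2 change −2.55, SE 0.0628, limma adjusted p = 3.30e-08). The cell cycle inhibitor Cdkn1c stood at 5.53 and 6.19 in the WT libraries, against 1.78 and 1.80 in KO (log2 change −1.30, SE 0.0773, limma adjusted p = 9.54e-06). H19, the noncoding neighbour of Igf2, fell by 0.41, Phlda2 by 0.41, and Cobl, next to Grb10, from 22.9 and 23.7 to 16.2 and 13.3, by 0.63. Peg3 and Slc38a4 were the paternal genes that fell, by 0.21 and 0.22, and Igf2r did not pass, with −0.13 (limma adjusted p = 0.184). Allele-specific coverage was not measured, so the copy that changed is not known.

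The Zscan4 copies and Gm4340, genes of the two-cell stage, were lower in KO. A small share of cultured embryonic stem cells expresses such genes at any time, and in bulk RNA fewer of these cells and less RNA per cell cannot be told apart. Of 8 tested members 7 fell, 0 rose and the median was −1.23, with 7 that fell whichever library was left out. Zscan4c, a zinc finger protein linked to telomere maintenance, stood at 5.56 and 6.64 in the WT libraries, against 1.69 and 2.33 in KO, 3.04 times lower in KO (log2 change −1.24, SE 0.111, limma adjusted p = 6.76e-05). Zscan4d stood at 3.595 and 4.50 in the WT libraries, against 1.15 and 1.41 in KO and had no window with equal coverage elsewhere (log2 change −1.14). The copies Zscan4a, Zscan4b, Zscan4e and Zscan4f fell by 1.30, 1.23, 1.24 and 1.29. They shared 3, 3, 6 and 29 windows with other names, and Zscan4c 12, so these copies are not fully separate measurements. Gm4340, of another two-cell family, fell by 0.85 and had equal coverage with other names in all 27 of its windows, while Eif1a stood at 62.4 and 65.9 in the WT libraries, against 65.8 and 66.6 in KO (log2 change 0.05, limma adjusted p = 0.638). The remaining listed genes in the files, among them Zfp352 and Sp110, were under the coverage limit. Without the coverage filter 7 of 17 fell, none rose and the median was −0.15.

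Of 15 tested germ cell genes 8 fell and 1 rose (median −0.23), and outside chromosomes 14 and 4, 6 of 13 fell and 1 rose. Without WT replicate 2, 5 fell, and with a minimum coverage of 5, 1 rose and 1 fell of 5 tested. In this list 1 rose and 5 fell with the median over windows, and 1 and 3 without the coverage filter. Stra8, which is induced by retinoic acid at the start of meiosis, stood at 2.07 and 2.21 in the WT libraries, against 0.457 and 0.595 in KO (log2 change −1.04, SE 0.0867, limma adjusted p = 4.66e-05). Mov10l1 and Mael, both of the piRNA pathway, fell by 0.52 and 0.39, and Piwil2, which binds piRNAs and lies on chromosome 14, fell by 0.53. Stag3, a cohesin subunit of meiosis, fell by 0.42 and Dazl, an RNA-binding protein of germ cells, by 0.25. The gene that rose was Tdrd12, also of the piRNA pathway, with 10.7 and 10.8 in the WT libraries, against 17.1 and 17.2 in KO (log2 change 0.63, SE 0.0620, limma adjusted p = 1.24e-04).

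Markers of other cell types were mostly low and gave no common direction. Of 39 Hox genes none reached the coverage limit, and 9 were at 0 in all 4 libraries. Of 16 mesoderm markers 2 were tested and Bmp4, on chromosome 14, fell from 1.15 and 1.26 to 0.669 and 0.507. Summed over all 16, the WT libraries had a coverage of 4.91 and 4.94 and the KO libraries 4.77 and 4.35. Endoderm markers summed to 205.8 and 200.8 in the WT libraries, against 188.7 and 180.3 in KO, of which Apoe, a lipid carrier, made up most. 2 of 7 tested rose and 2 fell. Of 9 tested trophectoderm markers 4 rose and 3 fell, the largest being the keratins Krt8 and Krt18. The sums of that list were 62.4 and 64.1 in the WT libraries, against 62.9 and 67.3 in KO.

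Among 8 tested neural markers 4 fell and 1 rose. Nes, an intermediate filament of neural progenitors, rose from 0.900 and 0.681 to 3.15 and 2.67 (log2 change 1.13, SE 0.0956, limma adjusted p = 5.22e-05), while the neural factors Sox1 and Neurod1 fell by 0.55 and 0.66. Fibroblast and feeder markers summed to 62.5 and 62.3 in the WT libraries, against 61.8 and 59.5 in KO, with the filament protein Vim lower by 0.32 and the factor Twist1 higher by 0.45, both past the test. Endothelial markers summed to 17.2 and 16.7 in the WT libraries, against 12.9 and 12.3 in KO, with falls of Pecam1, which the naive list holds too, and Eng. Blood markers summed to 5.46 and 5.34 in the WT libraries, against 4.29 and 3.80 in KO, and 5 of 14 were at 0 in all 4 libraries. Sums for muscle markers were 17.7, 16.3, 18.9 and 25.1 in the order WT replicates 1 and 2 and KO replicates 1 and 2, mostly from Acta1. The part of any such cells in the gene lists above was not tested.

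The m6A machinery did not move as a group. Of 13 writers and cofactors none rose and 2 fell, Mettl3 and Zc3h13 (6.50 and 5.81 in the WT libraries, against 4.97 and 4.17 in KO; log2 change −0.36, limma adjusted p = 0.0152), and both lie on chromosome 14. The share of writers and cofactors that fell, 15.4%, was near the 13.6% of all genes tested. With the median over windows 1 of the 13 fell, and without the coverage filter 0, with 4 at an unadjusted p under 0.05 in limma. Mettl14 stood at 7.77 and 7.84 in the WT libraries, against 7.85 and 8.46 in KO (log2 change 0.06, limma adjusted p = 0.579) and Wtap, the subunit that places the complex in nuclear speckles, at 16.97 and 17.96 in the WT libraries, against 19.9 and 18.9 in KO (0.15, limma adjusted p = 0.126). The change of Wtap was −0.40 when medians over windows were used. Of 15 erasers and readers 4 rose and 1 fell. The readers Ythdf1 and Igf2bp2 stood at 30.9 and 30.97 in the WT libraries, against 36.6 and 35.8 in KO and at 10.6 and 11.5 in the WT libraries, against 16.3 and 14.04 in KO, with changes of 0.22 and 0.42 (limma adjusted p = 0.0264 and 0.00503). The demethylase Fto rose by 0.22, and Alkbh5 did not pass (−0.19, limma adjusted p = 0.120). The member that fell was Hnrnpc, on chromosome 14 (−0.29). With any 1 library left out, 1 to 3 of the readers and erasers rose, and 1 of them rose without WT replicate 1, without WT replicate 2 or without KO replicate 1. None passed in limma without the coverage filter, with 5 at an unadjusted p under 0.05, and 1 rose with the median over windows.

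Stress pathways changed in part. In the integrated stress response, in which Atf4 drives amino acid supply, 8 of 18 rose and none fell, by 0.21 to 0.55, with Cebpb (0.55), Aldh18a1 (0.33), Trib3 (0.24) and Atf4 itself, which stood at 72.5 and 76.1 in the WT libraries, against 85.1 and 87.9 in KO (0.22). That count was 2 without WT replicate 1 or without KO replicate 2 and 5 without WT replicate 2, and it was 2 with the median over windows and 1 without the coverage filter. Of 26 p53 genes 5 rose and 5 fell (19.2% each). Cdkn1a, the p21 inhibitor of the cell cycle, stood at 18.3 and 17.8 in the WT libraries, against 14.9 and 14.2 in KO (−0.29) and Pmaip1, the apoptosis inducer Noxa, fell, with a change of −0.52. Perp, a junctional protein of apoptosis, rose by 0.45, Ddit4, an inhibitor of mTOR signalling, by 0.50, and Phlda3, an inhibitor of Akt, by 0.30. Of 17 interferon response genes 5 rose (29.4%) and 3 fell (17.6%). Ifitm1, a membrane protein that is also a marker of early germ cells, rose. It stood at 91.4 and 95.05 in the WT libraries, against 138 and 152 in KO (log2 change 0.63, SE 0.0720, limma adjusted p = 3.11e-04). Of 8 sensors and editors of double-stranded RNA 2 rose, the sensor Ddx58 (0.39) and the factor Irf3 (0.27). The metallothioneins Mt1, Mt2 and Mt3, which bind zinc and copper, rose by 0.49, 0.41 and 0.53. In their list of 11 tested genes, which also holds genes of iron, 5 rose and 1 fell, Trf. Of 21 genes of endoplasmic reticulum protein folding none rose and 3 fell (14.3%). Of 27 heat shock proteins and cytosolic chaperones 1 rose and 3 fell (11.1%). Among all genes tested 13.0% rose and 13.6% fell.

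Housekeeping groups showed small shifts. Of 76 mitochondrial ribosomal proteins 24 rose (31.6%) and 1 fell, with a median of 0.14. These transcripts are short, with a median of 24 windows, and among all genes of 21 to 40 windows 18.6% rose and 13.2% fell. Mrpl38 stood at 11.1 and 11.3 in the WT libraries, against 17.3 and 19.06 in KO (0.65) and Mrpl33 at 32.4 and 37.1 in the WT libraries, against 49.4 and 48.2 in KO (0.48). Without WT replicate 1 the count was 14, with the median over windows 9 and without the coverage filter 5. Of 85 cytosolic ribosomal proteins 7 rose (8.24%) and 3 fell (3.53%), shares below the 13.0 and 13.6% of all genes tested. In this list 70 were above 0 and the median was 0.12, or 0.045 with quantile normalization. These transcripts are short too, with a median of 17 windows. Among all genes of 1 to 20 windows the median change was 0.08, and 20.8% rose and 10.5% fell. The rises counted 2 with WT replicate 1 or WT replicate 2 left out, 3 without KO replicate 2 and 25 without KO replicate 1, with the median over windows 3 and without the coverage filter 1. Rpl39l, the paralog of Rpl39 known from testis, stood apart with 37.8 and 38.8 in the WT libraries, against 19.9 and 23.3 in KO (log2 change −0.80, SE 0.0784, limma adjusted p = 1.23e-04), and Rpl39 rose by 0.31.

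The largest rises in cholesterol synthesis were those of Nsdhl (0.68) and the squalene epoxidase Sqle (0.45). Nsdhl stood at 6.98 and 7.57 in the WT libraries, against 12.5 and 12.04 in KO. Of the 23 genes tested in this list 7 rose (30.4%) and 1 fell (4.35%). The count was 2 without WT replicate 1 and 4 without KO replicate 2, with the median over windows 1 and without the coverage filter 2. In glycolysis 5 of 23 rose (21.7%) and 3 fell (13.0%, near the 13.6% of all genes tested). Ldhb, lactate dehydrogenase B, stood at 50.8 and 47.9 in the WT libraries, against 81.99 and 89.7 in KO (log2 change 0.78, SE 0.0707, limma adjusted p = 7.01e-05). The citric acid cycle had no gene that rose and 2 of 23 that fell (8.70%), Sucla2 and Pdhb, both on chromosome 14. Of 78 subunits of oxidative phosphorylation 9 rose (11.5%) and 8 fell (10.3%), shares below the 13.0 and 13.6% of all genes tested.

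Lists of RNA decay, the lysosome and mitosis held more falls than rises in the fit of all genes, and these counts depended on the setting. Of 44 genes of mRNA decay 11 fell and 4 rose, and outside chromosomes 14 and 4 the counts were 8 and 4 of 39. Tob1, which recruits deadenylases, stood at 16.8 and 18.2 in the WT libraries, against 9.96 and 10.3 in KO (log2 change −0.74, SE 0.0673, limma adjusted p = 7.68e-05). Without WT replicate 2 or without KO replicate 2, 5 fell and 4 rose, and without WT replicate 1, 6 and 3. With the median over windows 2 fell and 2 rose, and without the coverage filter 3 and 1. In lysosome and autophagy 11 of 37 fell and 2 rose, and outside these chromosomes the counts were 9 and 2 of 35. Gabarapl2, a protein of the autophagosome membrane, fell by 0.92 and the protease Ctsb, on chromosome 14, by 0.62. The lysosomal membrane protein Laptm5, on chromosome 4, stood at 20.6 and 25.1 in the WT libraries, against 12.6 and 11.9 in KO (log2 change −0.84, SE 0.0889, limma adjusted p = 1.91e-04). With WT replicate 1 or WT replicate 2 left out 6 fell, and with the median over windows or without the coverage filter 4. In mitosis 9 of 38 fell and 2 rose, and outside chromosomes 14 and 4 the counts were 6 and 2 of 35. Cdc20, the activator of the anaphase-promoting complex, stood at 63.2 and 62.3 in the WT libraries, against 47.4 and 46.4 in KO (−0.41), and lies on chromosome 4. Without WT replicate 1, 5 of that list fell, and without WT replicate 2, 4 fell. With the median over windows none of the 38 passed in limma, with 12 at an unadjusted p under 0.05, and without the coverage filter 2 fell and none rose.

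Chromatin genes moved in both directions. Of 29 Polycomb genes 7 fell (24.1%) and 3 rose (10.3%). Eed, a core subunit of the repressive complex, stood at 46.4 and 50.9 in the WT libraries, against 39.9 and 41.8 in KO (−0.25). Of 16 genes of DNA methylation and imprint control 5 fell (31.25%) and 4 rose (25%). Uhrf1, which brings the maintenance methyltransferase to hemimethylated DNA, stood at 46.9 and 49.4 in the WT libraries, against 35.99 and 34.02 in KO (log2 change −0.45, SE 0.0655, limma adjusted p = 0.00123), and Trim28, the corepressor that protects imprints, at 181 and 193 in the WT libraries, against 153 and 137 in KO (−0.37, limma adjusted p = 0.00881). Of 266 Zfp zinc finger genes 20 rose and 22 fell, shares below the 13.0 and 13.6% of all genes. In the adaptors of ubiquitin ligases 12 of 71 fell (16.9%, near the 13.6% of all genes) and 3 rose (4.23%). Outside chromosomes 14 and 4 the counts were 4 and 3 of 59. Of all genes outside these chromosomes 10.6% fell and 14.0% rose.

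Sex chromosomes and clustered families completed the groups. Of 5 tested Y-linked genes 4 rose, and 2 with the median over windows. Without the coverage filter 3 of 8 rose and none fell. Zfy1 and Uba1y reached the coverage limit in the KO libraries only, so they could be tested only because KO was higher. Eif2s3y, a translation factor, stood at 21.4 and 23.5 in the WT libraries, against 29.4 and 31.7 in KO (0.43), Uty, a demethylase homologue, at 3.55 and 3.55 in the WT libraries, against 4.41 and 4.54 in KO (0.27), Zfy1 at 0.376 and 0.386 in the WT libraries, against 1.29 and 1.74 in KO and Uba1y at 0.731 and 0.808 in the WT libraries, against 2.05 and 2.13 in KO, while Ddx3y, a helicase, stood at 12.01 and 13.7 in the WT libraries, against 11.3 and 11.7 in KO and did not pass (limma adjusted p = 0.173). Of 22 tested protocadherins 17 rose, all of the gamma cluster. The named members, such as Pcdhgc3 (0.27) and Pcdhga11 (0.27), had equal coverage in 44 windows with other names, so they are close to 1 measurement repeated. Of 141 genes of long noncoding RNAs, as RefSeq classes them, 30 rose (21.3%) and 21 fell (14.9%). Among the genes of small RNAs, whose windows here hold the precursor or host transcript and not the mature RNA, 28 of 200 rose and 21 fell, with Mir294 of the embryonic stem cell cluster at 32.8 and 34.7 in the WT libraries, against 49.6 and 44.6 in KO (0.47). The shares of small RNA genes that rose and fell, 14.0 and 10.5%, lay near the 13.0 and 13.6% of all genes tested.

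**Figure D3:**
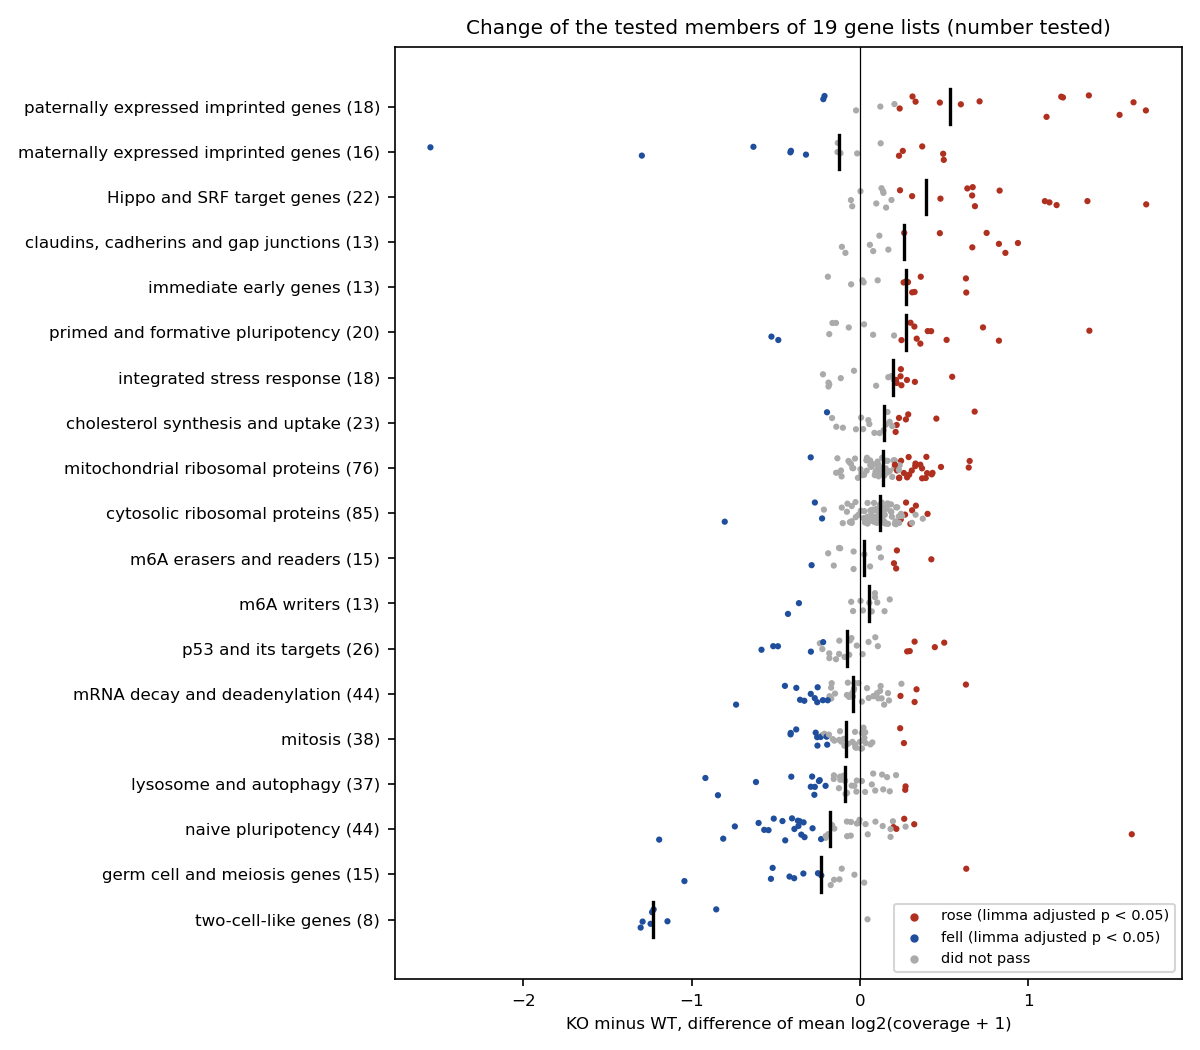
KO minus WT difference in mean log2(coverage + 1) for each tested member (dot) of gene lists, with the number tested in brackets; red dots rose and blue dots fell (limma adjusted p below 0.05), grey dots did not pass, and the black bar is the list's median. Only a chosen part of the 81 lists is shown, and keratins, with a median of 1.01, are not among them. The medians of the lists shown run from −1.23 in two-cell-like genes to 0.54 in paternally expressed imprinted genes.

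The changes were then set against the m6A status of each gene. A region was a stretch of 2 or more adjoining windows with the authors' winscore, a log2 enrichment, of at least 2 in the first IP library, which belongs to neither genotype group. Of 5113 genes without a region 14.6% rose and 14.04% fell, and of 6098 genes with 1 or more regions 11.6% rose and 13.2% fell. The medians were 0.01 and −0.01, a difference of −0.02 that is smaller than the 0.0278 by which it varied between the KO libraries (SD, n = 2). Genes with 3 or more regions stood out in counts: 6.63% of 950 rose and 15.6% fell, with a median of −0.05. They were also the longest, with a median of 121 windows against 40 in genes without a region.

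Length itself went with the change. Of 1145 genes of 1 to 20 windows 20.8% rose and 10.5% fell, and of 3406 genes of 81 or more windows 8.16% rose and 14.97% fell, with medians of 0.08 and −0.04. Within every class of length genes with a region fell less often than genes without one, and they rose more often except at 81 or more windows. At 1 to 20 windows, where 94 genes had a region, 29.8% of genes with and 19.98% of genes without a region rose, and 5.32 and 10.9% fell. At 21 to 40 windows 20.6% of genes with and 17.5% of genes without a region rose. At 41 to 80 windows the shares were 12.4 and 10.7%, and at 81 or more windows 7.53 and 10.3%. The shares that fell in these last 3 classes were 10.8 and 14.5%, 12.4 and 15.03%, and 14.9 and 15.2% in the same order. These differences between classes were not tested. Whether RNA quality or fragment size differed between the genotypes was not measured in these files, and its part in the trend with length was not tested.

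**Figure D4:**
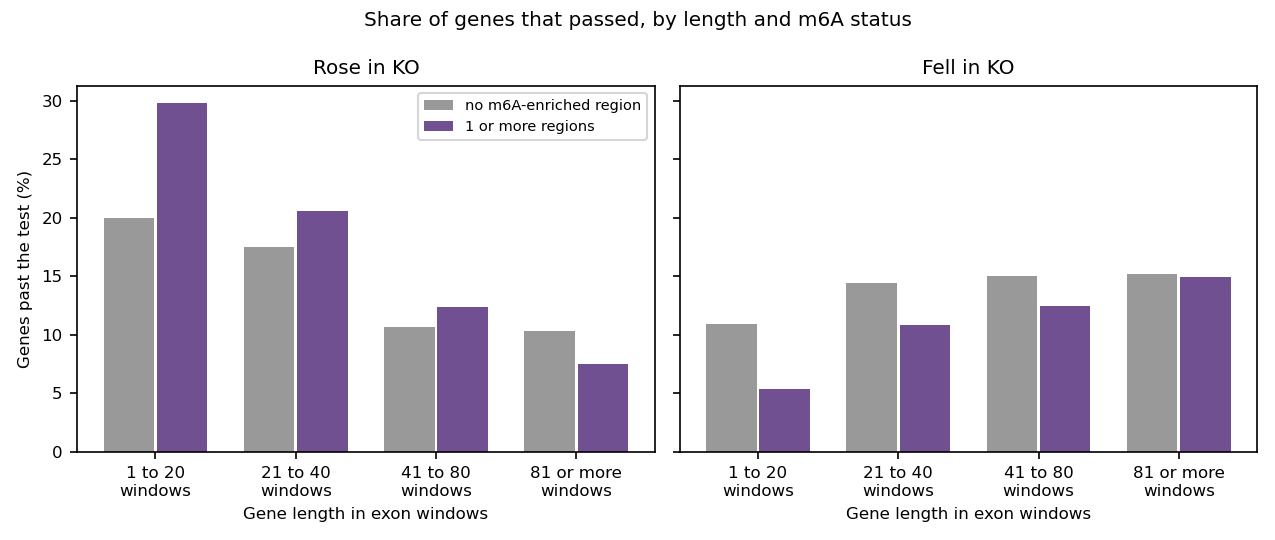
Percent of tested genes that rose (left) or fell (right) in KO, by gene length in exon windows (x axis) and by the presence of an m6A-enriched region in the first IP library (grey, none; purple, 1 or more). The share that rose is 19.98 and 29.8% at 1 to 20 windows and 10.3 and 7.53% at 81 or more windows, for genes without and with a region.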

How the data were processed

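The libraries were sequenced from fragmented input RNA; per the submitters' processing notes reads were aligned with TopHat 1.1.3 to mm9, and no source used here gives the read filters or strand handling. The authors deposited, for each exon window, an input coverage signal and a winscore, which is the log2 enrichment of IP over input; the deposited winscore of the first IP library defined the m6A-enriched regions. The authors' RPKM columns were not used, because those of the KO libraries followed the IP tracks (r = 0.960 and 0.975) more closely than the input tracks (0.700 and 0.713).

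Window coverage was averaged per gene, and log2(coverage + 1) was fitted with limma 3.58.1 (lmFit, eBayes with trend; R 4.3.3) on the 2 WT and 2 KO libraries, with Benjamini-Hochberg adjustment over all 11211 genes. The fit was checked on simulated data. Tables and figures used Python 3.11.15, numpy 2.4.6, pandas 2.3.3 and matplotlib 3.10.9. Chromosomes, current names and promoters came from RefSeq (GRCm38.p6): 9843 genes matched by current symbol, 725 only by an older one and 643 not at all. Named genes were Mettl3, the 15 largest rises and falls that passed without overlap and with a group mean of at least 2, up to 8 members per list with the smallest p, and members of the m6A, pluripotency, imprinted, p53, Y-linked and defining marker lists. The members and lists were chosen with earlier results of these data known. Some genes of the lists are not reported here by name.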

Additional observations from a re-analysis of the deposited data

How the results depend on the processing

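The count of 2977 genes that passed was 762 without a filter on low coverage (of 21812 genes), 1930 with a minimum of 5 (of 6309) and 817 with the median over windows in place of the mean; leaving out 1 library gave 1743 to 3144. With the replicate number as a block it was 2737 (1337 rose and 1400 fell); same-numbered libraries did not deviate together (correlation −0.0271 over genes), so the numbers were not taken to pair the samples. Of 73 lists with at least 5 tested members, 10 had a median of at least 0.2 in either direction; 5 of 80 did without the filter, 6 with a pseudocount of 5, and 10 to 13 with 1 library left out. The median of chromosome 14, −0.30, was −0.30 with a minimum of 5 or with at least 10 windows per gene, −0.34 with a pseudocount of 0.1, −0.16 with 5, −0.28 after median centring, −0.29 after quantile normalization, −0.32 with the median over windows, and −0.30 to −0.27 with 1 library left out. With the median over windows the changes of Meg3, Wtap and Klf2 took the other sign: Meg3 was at −0.28, Wtap at −0.40 and Klf2 at 0.024. That of Pou5f1 ranged from −0.056 to 0.020 with 1 library left out; the cause was not tested. The chromosome settings and the counts outside chromosomes 14 and 4 were chosen after seeing the data. Precision is limited by 2 libraries per genotype, and KO replicate 2 was the shallowest library.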
